A study of Mus musculus with 6 samples.

Results

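The genes of mitosis, 37 in all, were followed in B cell progenitors of old and young mice. They were taken by name and sorted by role into mitotic kinases and cyclins, the spindle checkpoint and anaphase onset, the centromere and kinetochore, spindle motors and microtubule binders, the central spindle and cytokinesis, and condensin with other mitotic chromosome proteins. Of these, 36 had a probe set of their own among the 19938 genes measured, and cyclin B1 (Ccnb1) had none. Each gene is given by its brightest probe set. RNA came from sorted B cell progenitors, pro-B together with pre-B cells, of BALB/c mice, an inbred strain for which the labels name no treatment, and 100 ng per sample was amplified and hybridised. There were 3 arrays from mice of 24 months (old) and 3 from mice of 2 months (young). The labels do not say whether an array holds 1 mouse or several, nor which surface markers were sorted, so p-values measure only the spread between these arrays. Of 12 B lineage markers 11 were measured, and all 11 lay above the background level defined below on old replicate 3 and on each young array, against 5 and 7 on old replicates 1 and 2.

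As background, a cell enters mitosis when the kinase Cdk1 is switched on by its cyclins. Condensin then compacts the chromosomes, kinetochores attach them to a spindle built by motor proteins, a checkpoint holds anaphase back until all are attached, and the central spindle guides the cut between the daughter cells. Their messenger RNAs build up late in the cell cycle and are low in resting cells. In the marrow, large pre-B cells and many pro-B cells divide, whereas small pre-B cells rest. In RNA from many cells, fewer dividing cells and less RNA of these genes per cell cannot be told apart.

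Late cell cycle genes are known for 2 short promoter elements, the CHR (TTTGAA or, less often, the form TTCGAA), which the MuvB complex reads, and the CCAAT box, which NF-Y binds. The promoters of the listed genes were read from RefSeq's table (GRCm38.p6), which held 32 of the 37. The window ran from 250 bases before to 50 bases after the first base of the gene, on both strands. TTTGAA was found in 24 of 32 (75%) against 18.1% of 27025 promoters of all genes, TTCGAA in 3 of 32 (9.38%) against 1.57%, and CCAAT in 24 of 32 (75%) against 37.9%. A CCAAT together with either form of the CHR stood in 22 of 32 (68.8%) against 7.7%. Each motif was counted on its own, matches may share bases with one another, and a match is only a match of letters. The 250 bases before the start follow for 4 genes that carry both elements there and for Ncaph, whose window holds none although it had the lowest value relative to young on old replicate 3. Capitals mark a CHR of either form or a CCAAT box on either strand; on the other strand TTTGAA reads as TTCAAA, while a CCAAT box reads as ATTGG.
Cdk1 (chr10:69352913-69353162, minus strand): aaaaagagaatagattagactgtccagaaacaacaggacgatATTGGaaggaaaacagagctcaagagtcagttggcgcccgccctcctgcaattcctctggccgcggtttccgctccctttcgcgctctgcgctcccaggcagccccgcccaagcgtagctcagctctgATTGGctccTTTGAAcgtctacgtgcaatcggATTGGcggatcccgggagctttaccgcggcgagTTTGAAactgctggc
Ccnb2 (chr9:70421555-70421804, minus strand): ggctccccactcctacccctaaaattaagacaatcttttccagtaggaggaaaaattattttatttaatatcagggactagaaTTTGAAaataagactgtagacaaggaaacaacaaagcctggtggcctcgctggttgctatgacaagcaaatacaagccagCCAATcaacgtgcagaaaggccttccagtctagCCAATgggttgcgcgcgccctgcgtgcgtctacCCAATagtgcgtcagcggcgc
Top2a (chr11:99024190-99024439, minus strand): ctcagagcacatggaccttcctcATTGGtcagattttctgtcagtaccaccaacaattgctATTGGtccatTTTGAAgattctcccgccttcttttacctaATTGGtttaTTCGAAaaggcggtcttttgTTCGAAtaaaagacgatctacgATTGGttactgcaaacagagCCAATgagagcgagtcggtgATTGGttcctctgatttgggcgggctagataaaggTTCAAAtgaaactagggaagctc
Mki67 (chr7:135716380-135716629, minus strand): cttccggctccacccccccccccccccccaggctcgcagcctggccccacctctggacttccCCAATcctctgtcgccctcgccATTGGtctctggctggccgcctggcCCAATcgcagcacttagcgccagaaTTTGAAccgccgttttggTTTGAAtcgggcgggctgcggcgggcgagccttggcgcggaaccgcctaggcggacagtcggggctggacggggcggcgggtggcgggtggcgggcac
Ncaph (chr2:127133955-127134204, minus strand): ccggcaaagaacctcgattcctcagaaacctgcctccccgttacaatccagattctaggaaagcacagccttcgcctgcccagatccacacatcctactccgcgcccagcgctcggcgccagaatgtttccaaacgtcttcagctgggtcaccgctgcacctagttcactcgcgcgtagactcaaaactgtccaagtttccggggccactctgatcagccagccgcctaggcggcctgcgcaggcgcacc
The Cdk1 stretch carries 3 CCAAT and 2 TTTGAA, that of Ccnb2 carries 3 and 1, that of Mki67 3 and 2, and that of Top2a carries 6 CCAAT, 2 TTTGAA and 2 TTCGAA. In Ccnb2 the CCAAT boxes begin 87, 54 and 21 bases before the start.

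All 36 measured genes had a lower mean in the old group, by 0.45 to 3.54 on the log2 scale with a median difference of -2.42, where the median over all genes was 0.37. After quantile normalization the median was -2.00, with Aurka and Cdc20 turned to 0.52 and 0.62 above young. None passed an adjusted p under 0.05 with limma (adjusted p from 0.101 to 0.144), as none of the 23410 probe sets tested did (0%). At an unadjusted p under 0.05, 35 of 36 were lower and 0 higher, against 21.9% of all probe sets lower. Over all 19938 genes 4339 were lower and 5020 higher at that threshold. In 34 of 36 all 3 old arrays lay below all 3 young arrays, against 22.9% of all probe sets. Over all genes this held for 4610, while in 7307 all old arrays lay above all young arrays. Among the 1295 genes whose young mean was at or above that of the median mitotic gene (8.34), hereafter bright genes, 81% were lower at an unadjusted p under 0.05, 67.8% had groups that did not overlap, and the median difference was -2.27. The spread within the old group was wide. Its SD was 0.18 to 2.89 across the mitotic genes, against 0.03 to 0.35 in the young group.

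The old arrays did not form 1 level. The background level of an array was set where 95% of 1210 probe sets for odour and pheromone receptors, genes of the nose, lay below it. By this measure, all 36 genes were above it on each young array and 35 on old replicate 3, but 4 on old replicate 1 and 4 on old replicate 2. Over all genes 2524 and 2849 of 19938 were above it on old replicates 1 and 2, against 9643 on old replicate 3 and 10423 to 11124 on the young arrays. Of the bright genes 31.5% and 44.4% were above it on old replicates 1 and 2, against 11.1% of mitotic genes on each. The bright genes were brighter, with a median young mean of 9.08 against 8.34. Of the 7649 genes with a young mean at or above that of the lowest mitotic gene (5.50), 24.7% and 29.2% were above it. For 31 of 36 genes both of these arrays were at or below background, so that sizes there are not measured. On each of these arrays 32 genes were at or below background. With those values raised to the background level, their median difference was -2.06 on old replicate 1 and -2.23 on old replicate 2. These are bounds and not sizes. They reached 0.78 and 0.70 above young for Espl1, whose young mean lay under the background of both arrays. Differences over all arrays below carry this limit, and the values of old replicate 3 are given apart.

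**Figure D1:**
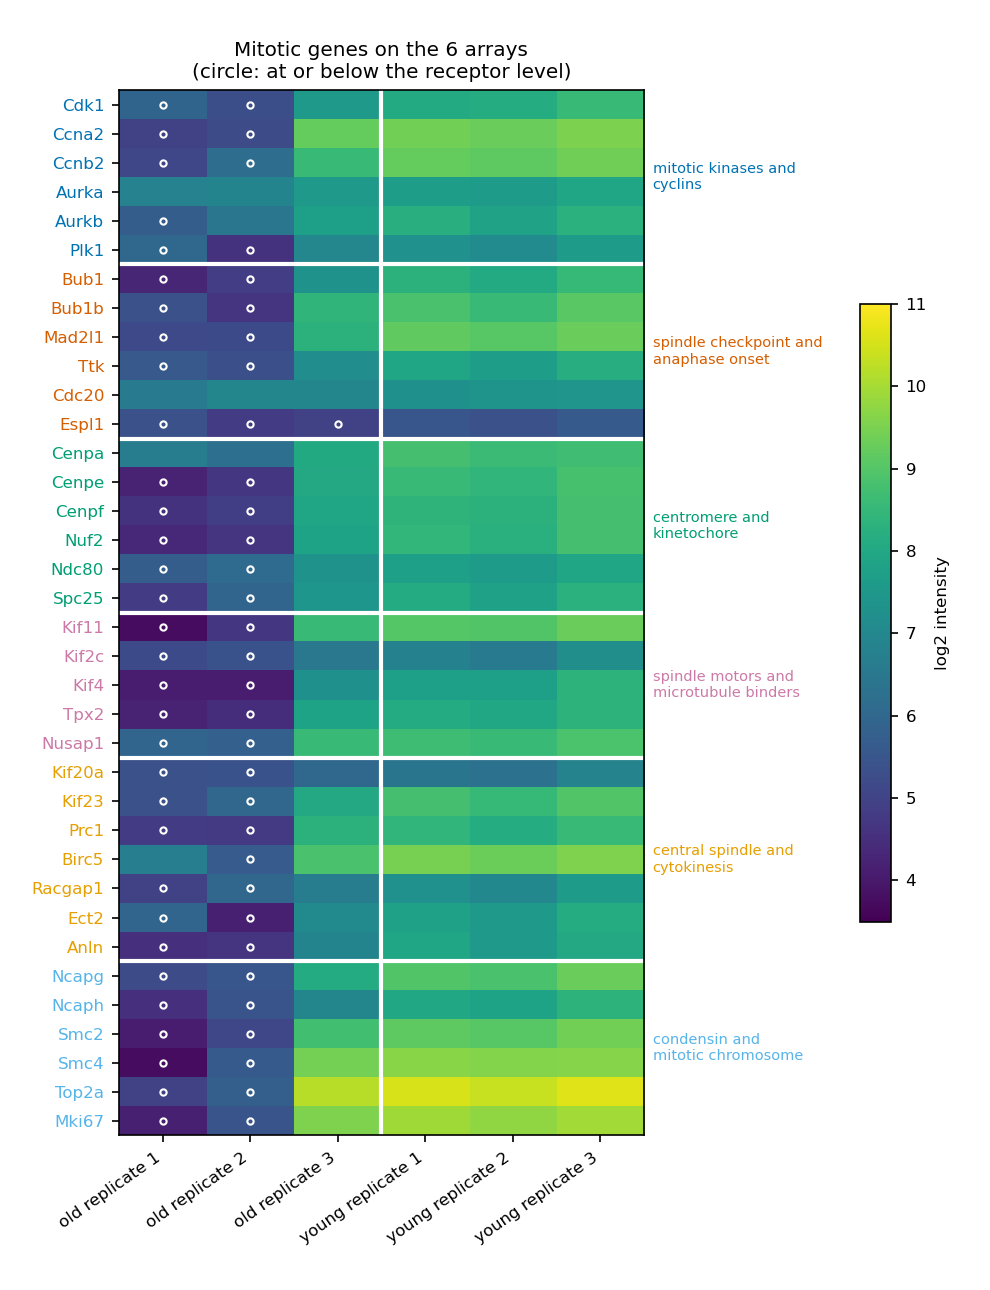
Heat map of log2 intensity for the 36 mitotic genes (rows, grouped by role) on the 3 old and 3 young arrays (columns). White circles mark values at or below the receptor level of that array: 31 of 36 rows carry them on both old replicates 1 and 2, while on old replicate 3 only Espl1 does.

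Of the mitotic kinases and cyclins, all 6 measured genes lay lower on every old array than on any young array. Cdk1, the kinase that drives mitotic entry, stood at 5.92, 5.30 and 7.53 on old replicates 1, 2 and 3 and at 8.07, 8.16 and 8.55 on young replicates 1, 2 and 3, the order kept for every gene, a difference of -2.01 ± 0.55 (SE, n = 3 and 3). Its partner cyclin A2 (Ccna2) stood at 4.97, 5.21 and 9.24 against 9.40, 9.29 and 9.53, and cyclin B2 (Ccnb2) at 5.11, 6.17 and 8.56 against 9.21, 9.15 and 9.36. Both cyclins were thus near background on the first 2 old arrays, yet on old replicate 3 Ccna2 was 0.17 and Ccnb2 0.68 below its young mean. The Aurora kinases, of which Aurka works at the spindle poles and Aurkb at centromeres and the midzone, were both lower. Aurka stood at 6.83, 6.88 and 7.53 against 7.69, 7.64 and 7.93 and was above background on all 6 arrays, with a difference of -0.67 ± 0.27 (SE) as deposited that was 0.52 after quantile normalization. Aurkb stood at 5.73, 6.45 and 7.75 against 8.20, 7.81 and 8.29. The groups overlapped for neither kinase, and whether the kinases differ from one another was not tested. Plk1, a kinase of spindle assembly and mitotic exit, stood at 6.04, 4.61 and 6.97 against 7.30, 7.12 and 7.62.

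The spindle checkpoint genes were lower on all 3 old arrays than on any young array, and on old replicate 3 they lay 0.40 to 0.95 below their young means. Bub1, a kinetochore kinase of the checkpoint, stood at 4.30, 4.86 and 7.35 on the old and 8.31, 8.08 and 8.51 on the young arrays, and Bub1b (BubR1), which blocks the anaphase-promoting complex, at 5.35, 4.67 and 8.41 against 8.85, 8.57 and 9.07. Bub1 was thus 0.95 and Bub1b 0.42 below the young mean on old replicate 3. Mad2l1, which joins Bub1b in that block, stood at 5.16, 5.20 and 8.31 against 9.18, 9.06 and 9.28, and the kinase Ttk (Mps1) at 5.59, 5.33 and 7.19 against 7.92, 7.70 and 8.17. Cdc20, which the checkpoint restrains and which starts anaphase, lay closest of the 6 to its young mean on old replicate 3. It stood at 6.63, 6.93 and 6.95 against 7.25, 7.39 and 7.40, the 3 old values close together and all below the young ones, a difference of -0.51 ± 0.21 (SE) as deposited that was 0.62 after quantile normalization. Espl1, the separase that cuts cohesin, stood at 5.36, 4.83 and 4.97 against 5.51, 5.37 and 5.63, at or below background on all 3 old arrays, so that no size is given.

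In the centromere and kinetochore group the 6 genes lay together on old replicate 3, from 0.43 to 0.66 below their young means. Cenpa, the histone H3 variant that marks centromeres, was above background throughout. It stood at 6.67, 6.24 and 8.05 on the old and 8.80, 8.63 and 8.71 on the young arrays. The difference was -1.72 ± 0.46 (SE) as deposited and -0.58 after quantile normalization. Only 3 of the measured mitotic genes, Cenpa, Aurka and Cdc20, were above background on both old replicates 1 and 2. After quantile normalization Aurka and Cdc20 were 0.52 and 0.62 above young. Cenpe, a kinetochore motor, stood at 4.22, 4.70 and 8.03 against 8.54, 8.44 and 8.82. Ndc80, which grips microtubules, stood at 5.71, 6.12 and 7.32 against 7.72, 7.62 and 7.92. Its complex partners Nuf2 and Spc25 were 0.65 and 0.64 below the young mean on old replicate 3, and Ndc80 0.43. Cenpf, a large kinetochore protein of late cell cycle, was 0.58 below. No gene of this group overlapped between the age groups.

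Among the spindle motors and microtubule binders, the differences on old replicate 3 ran from 0.14 to 0.67 below young. Kif4, a chromosome-bound kinesin, stood at 4.08, 4.11 and 7.27 (old) against 7.73, 7.74 and 8.34 (young), with no overlap. Nusap1, which bundles spindle microtubules, stood at 5.95, 5.79 and 8.56 against 8.68, 8.55 and 8.88, and its value on old replicate 3 was within the young range. Kif11 (Eg5), the motor that pushes the spindle poles apart, was 0.50 below young on old replicate 3, the depolymerising kinesin Kif2c 0.34, and Tpx2, the activator of Aurka, 0.29.

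The central spindle and cytokinesis genes ran from 0.06 to 0.94 below young on old replicate 3, the widest span of the 6 roles after that of condensin. Prc1, which crosslinks midzone microtubules, stood at 4.80, 4.76 and 8.32 on the old and 8.43, 8.14 and 8.57 on the young arrays, with old replicate 3 inside the young range. Anln (anillin), which organises the contractile ring, stood at 4.52, 4.64 and 6.89 against 7.90, 7.55 and 8.03, so that old replicate 3 was 0.94 below the young mean. Ect2, the exchange factor that activates RhoA at the cleavage site, was 0.77 below, and its centralspindlin partners Kif23 and Racgap1 0.74 and 0.66. Birc5 (survivin), a subunit of the Aurkb complex, was 0.59 below and the kinesin Kif20a 0.50.

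Condensin and the other chromosome genes were at or below background on old replicates 1 and 2 in all 6 cases, so that no size is given for those arrays. On old replicate 3 all 6 were above background and below every young value. Top2a, which untangles DNA, stood at 4.95, 5.78 and 10.21 on the old and 10.55, 10.36 and 10.64 on the young arrays, and Mki67, the Ki-67 antigen that coats mitotic chromosomes, at 4.15, 5.45 and 9.55 against 9.94, 9.74 and 9.97. On old replicate 3 they were 0.31 and 0.33 below young. A second probe set of Top2a was at 2.93 to 3.90 on all 6 arrays, under the background level, and is not read. Of the condensin subunits, the core ATPase Smc4 stood at 3.76, 5.63 and 9.43 against 9.67, 9.60 and 9.65, and Ncaph, the kleisin that bridges the ATPases of condensin I, at 4.52, 5.44 and 6.95 against 7.96, 7.86 and 8.36. On old replicate 3 the subunits specific to condensin I, Ncaph and Ncapg, were 1.11 and 0.92 below young, and the third, Ncapd2, which is not among the 36 genes, was 0.42 below. Smc2 and Smc4, shared by both condensins, were 0.46 and 0.21 below, so that Ncapd2 lay level with Smc2. No difference between subunits was tested.

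**Figure D2:**
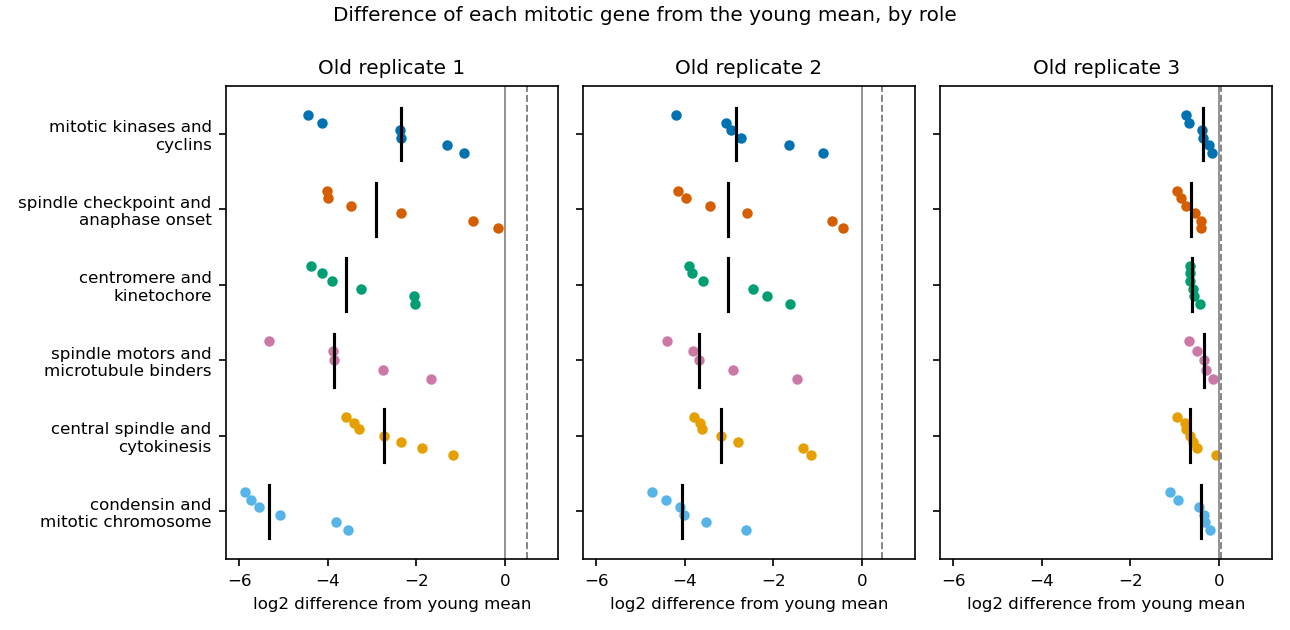
Difference of each of the 36 genes from its young mean (x axis, log2) on each old array, by role (y axis); black bars are role medians, the solid line is 0 and the dashed line the median of all genes on that array. Old replicates 1 and 2 lie far to the left, where 32 of 36 values on each are at or below background and give no size, and the role medians of old replicate 3 lie close to 0, from -0.66 to -0.34.

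On old replicate 3 the median difference was -0.66 for cytokinesis, -0.64 for the checkpoint, -0.61 for the kinetochore, -0.40 for condensin and chromosomes, -0.36 for kinases and cyclins and -0.34 for spindle motors. Single genes ran from -1.11 to -0.21 within the condensin group and from -0.66 to -0.43 within the kinetochore group. On old replicates 1 and 2, where 32 of 36 genes were at or below background on each, no such comparison is made. Over all 36 genes the median on old replicate 3 was -0.55, or 68.3% of the young level, beside -0.22 for the bright genes and 0.04 for all genes.

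Without old replicates 1 and 2, old replicate 3 stood as a single old array against the 3 young ones, and its own spread was taken to be that of the young arrays. In that fit 7 of 36 mitotic genes were called lower with limma and 0 higher (19.4%), against 5.24% of all probe sets and 10.6% of the bright genes lower. These were Mad2l1 (-0.87 ± 0.14, SE, adjusted p = 0.0196), Ncaph (-1.11 ± 0.20, adjusted p = 0.0259), Bub1 (-0.95 ± 0.18, adjusted p = 0.0285), Ncapg (-0.92 ± 0.18, adjusted p = 0.0301), Cenpa (-0.66 ± 0.13, adjusted p = 0.034), Ccnb2 (-0.68 ± 0.14, adjusted p = 0.0347) and Anln (-0.94 ± 0.19, adjusted p = 0.0354). They span 5 of the 6 roles, with no spindle motor among them. Birc5, Kif23 and Ttk stood just outside the threshold at adjusted p = 0.0504, 0.0526 and 0.0559. Of the 36 genes 34 lay below all 3 young values, against 68.5% of the bright genes and 32.2% of all genes. The calls did not hold in every setting. They changed with the normalization and with the young arrays kept, as did the calls over all probe sets. After quantile normalization the differences of the called genes shrank, to between -0.349 (Cenpa) and -0.675 (Ncaph). The median difference of the 36 genes on old replicate 3 was -0.65 when arrays were centred on their medians. It was -0.57, -0.63 and -0.45 without young replicates 1, 2 and 3. Quantile normalization set it at -0.28 and put Ccna2, Aurka, Nusap1 and Prc1 above the young mean, by 0.01 to 0.15. A fit with old replicates 1 and 2 alone, without old replicate 3, called 35 of 36 lower, all except Espl1, against 30.2% of all probe sets. The same fit called 19285 of 23410 probe sets in either direction. On each of these old arrays 32 of the 36 genes were at or below background.

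**Figure D3:**
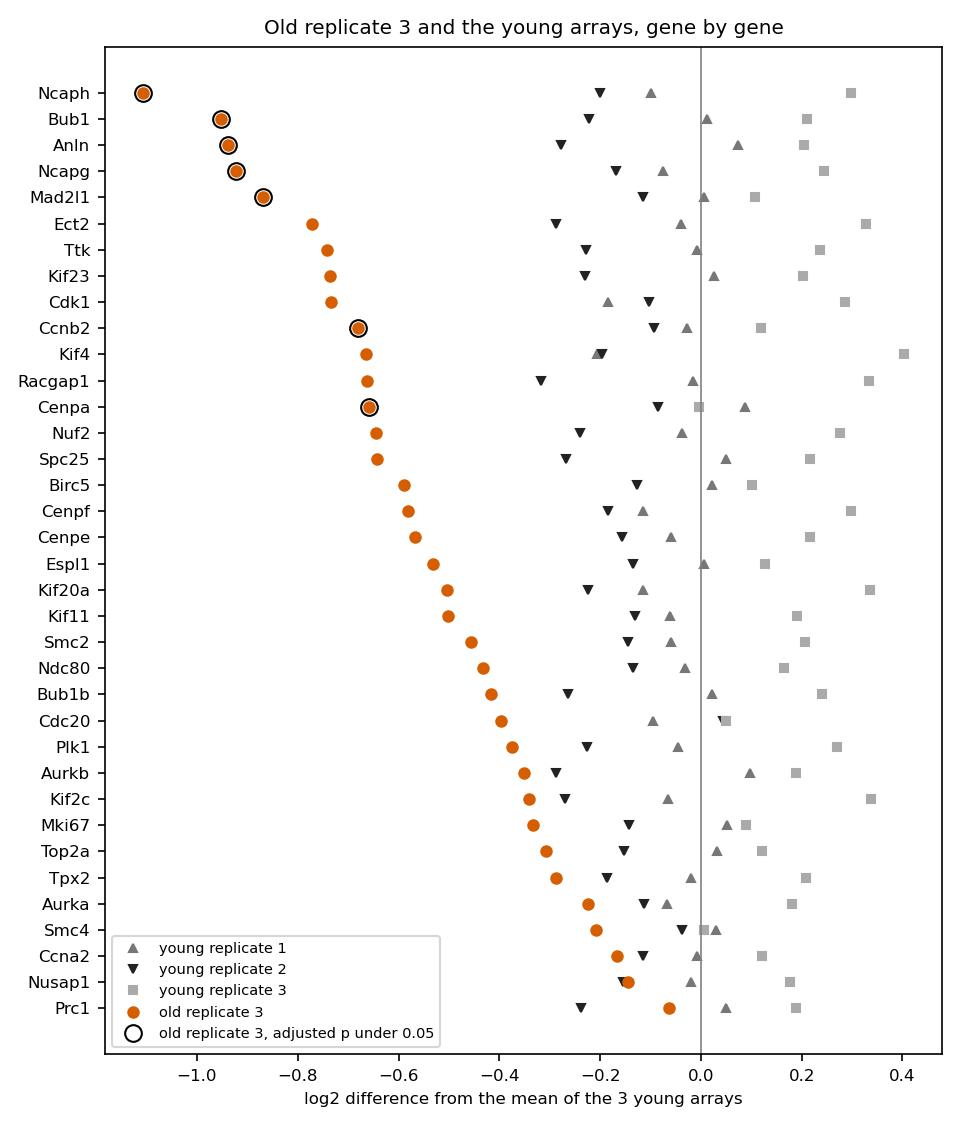
Log2 difference from the mean of the 3 young arrays (x axis) for each mitotic gene (y axis, ordered by old replicate 3). Orange points are old replicate 3, ringed for the 7 genes with an adjusted p under 0.05, and grey and black symbols are the young arrays; the orange points run from -1.11 (Ncaph) to -0.06 (Prc1) and young replicate 3 lies farthest right for 34 of 36 genes.

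The young arrays were themselves ordered in these genes. Young replicate 3 had the highest of the 3 young values for 34 of 36 and young replicate 2 the lowest for 33 of 36, where over all genes the shares were 37% and 30.6%. Among the bright genes they were 57% and 35.3%. The order replicate 3 above replicate 1 above replicate 2 was seen in 31 of 36 genes (86.1%) and in 18.9% of all genes. The median step from young replicate 2 to young replicate 3 was 0.40, and it was smallest for Cdc20 and Smc4 (0.01 and 0.04). After quantile normalization young replicate 3 was highest for 30 of 36, against 34% of all genes and 39.5% of the bright genes, and the median step was 0.27. In the 35 DNA replication genes, which act before mitosis, the step was 0.49, in 94 other mitotic genes 0.35 and in the bright genes 0.06. Even against young replicate 2, the lowest young array, old replicate 3 was lower for 34 of 36 genes as deposited, by 0.39 in the median, and for 27 of 36 after quantile normalization, by 0.16. The same held for 1015 and 717 of the 1295 bright genes, by 0.20 and 0.04 in the median, and for 9095 and 9687 of all 19938 genes.

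**Figure D4:**
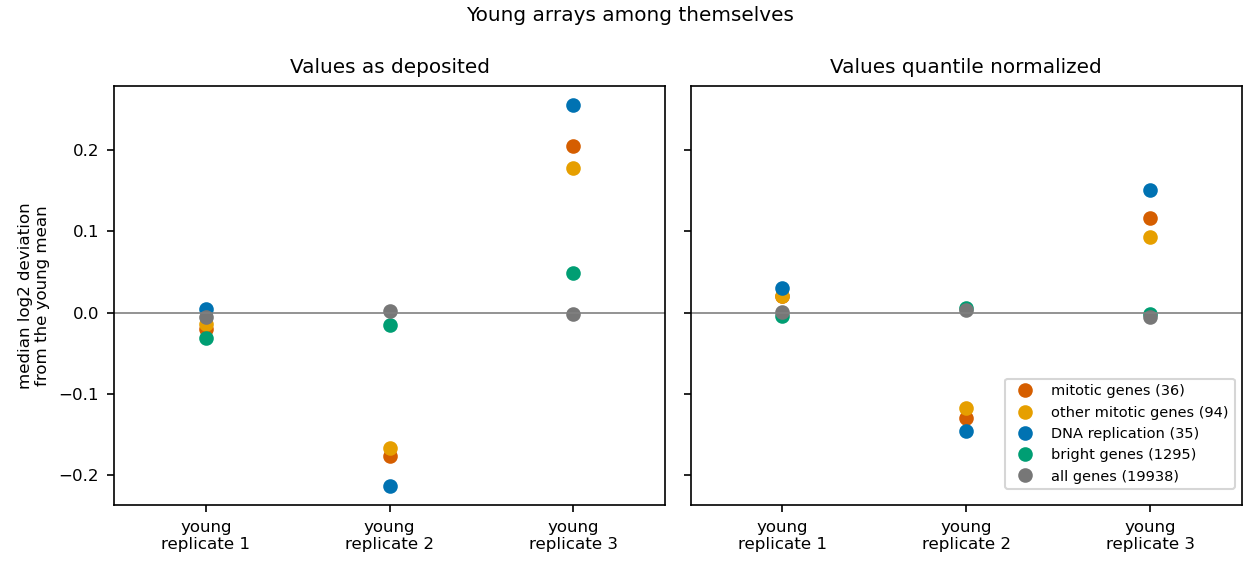
Median log2 deviation from the young mean (y axis) on each young array (x axis) for 5 gene sets, as deposited (left) and after quantile normalization (right). Mitotic and replication genes lie low on young replicate 2 and high on young replicate 3 in both panels, from -0.18 to 0.20 for the 36 mitotic genes as deposited, while the median of all genes stays at 0.

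Markers of granulocytes moved with the mitotic genes among the young arrays. All 12 neutrophil and granule genes were highest on young replicate 3 and 10 of 12 lowest on young replicate 2, with a summed intensity of 8295 to 10830 on the young arrays and of 2173, 4957 and 8708 on old replicates 1, 2 and 3. Mpo, a granule enzyme of myeloid precursors, was at 7.34 to 8.32 on the young arrays, highest on replicate 3, and at 6.94 on old replicate 3. On that old array 4 of the 12 granule genes lay below the young range, 2 above it and 6 within it. Their median difference from young there was -0.13. Of 8 monocyte and macrophage genes 7 were highest on young replicate 3 (summed intensity 806.5 to 1428, against 708.9 on old replicate 3). Of 9 erythroid genes 8 were (932.3 to 1135 against 776), while Gata1 and Klf1, transcription factors of that lineage, were near background. Of 9 T and NK cell genes 6 were (189 to 247.1 against 200.9), and of 8 plasma and mature B cell genes 1 was (880.4 to 1203 against 1118). The 11 B lineage genes had summed intensities of 10330 to 11150 on the young arrays and of 3015, 4500 and 9454 on old replicates 1, 2 and 3. Of the 11, 2 were highest on young replicate 3. One was Igll1, a part of the surrogate light chain of pro-B and large pre-B cells, named after its values were seen, which followed the order of the mitotic genes at 9.11, 8.77 and 9.54 on the young arrays and 7.86 on old replicate 3 (-1.28, adjusted p = 0.0346 with limma in the fit of that array). The other part of that chain, Vpreb1, was at 11.15, 10.76 and 11.07 on the young arrays and 10.82 on old replicate 3, and its old mean was 0.23 above young. The part of other cell types in the mitotic values was not tested.

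The rest of the mitotic machinery, 94 measured genes in 4 further lists, lay mostly lower too. Of them 88 had a lower old mean, 72 had all old arrays below all young arrays and 72 an unadjusted p under 0.05, all lower, and none passed the threshold over all genes. That is 76.6% for each count, beside 67.8% of the bright genes with groups apart and 81% with an unadjusted p under 0.05, and 22.9% and 21.9% of all probe sets. Their median difference was -1.51, and -0.46 on old replicate 3. Of 32 other kinetochore and checkpoint genes 25 had an unadjusted p under 0.05, the smallest being those of Zwilch and Kntc1, subunits of the RZZ complex, and Cenpo. Kntc1 and Cenpo differed by -1.76 and -1.45. Zwilch, and Oip5 with the largest p, were at or below background on all 3 old arrays, so that neither has a size. Of 28 other spindle and cytokinesis genes 18 did, led by Aspm, Arhgap11a and Kif18a (-1.96, -1.97 and -2.45), with Psrc1 at 0.12. Of 20 further kinases, phosphatases and parts of the anaphase-promoting complex 16 did. Mastl (Greatwall), the kinase that holds back the phosphatase opposing Cdk1, had old values of 3.54, 3.54 and 5.32 and young values averaging 6.78 ± 0.44 (SD, n = 3), and Pbk and Bora differed by -1.90 and -1.63. The subunit Anapc10 differed by 0.06. Of 14 other condensin and cohesin genes 13 did, with the condensin II subunits Ncapd3 and Ncapg2 at -1.93 and -2.00, the cohesin protector Cdca5 (sororin) at -1.50 and Ncaph2 at -0.31.

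On old replicate 3 alone 13 of these 94 genes were called lower (13.8%) and 0 higher, against 5.24% of all probe sets and 10.6% of the bright genes. Among them were Pbk (-1.23), Mastl (-1.46), Cenph (-1.15) and Cdc25c (-1.02), the phosphatase that activates Cdk1. Of 14 regulators of mitotic transcription, which include the MuvB complex, its partners and NF-Y, 9 had an unadjusted p under 0.05 over all arrays. All 9 were lower, a share of 64.3%, against 21.9% of all probe sets and 81% of the bright genes. The pocket proteins Rbl2 and Rbl1 differed by -1.24 and -2.57, the MuvB subunits Rbbp4 by -1.48 and Lin52 by 0.19. On old replicate 3 the median of these regulators was -0.39. The 35 replication genes had a median of -0.56 there, next to -0.55 for the mitotic genes, and 6 of 35 were called (17.1%), beside the same shares of 5.24% and 10.6%. For 19 cyclins, kinases and inhibitors of the earlier cycle the median on old replicate 3 was -0.13. On that array 9 of the 19 lay below the young range and 5 above it. Cdk6, Cdk4, Cdk2 and the inhibitor Cdkn2d differed there by -1.26, -0.90, -0.81 and -0.78. E2f3, Btg1, Ccnd2 and Ccng2 were 0.42, 0.30, 0.28 and 0.19 above young. Cdkn1b (p27), an inhibitor of resting cells, was 0.17 below young. Whether these lists differ from one another was not tested.

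Of the measured genes, 31 had a promoter in the table. The 25 measured genes with either form of the CHR in the window had a median of -0.58 on old replicate 3 relative to young (from -0.95 to -0.06), and the 6 without it one of -0.62 on that array (from -1.11 to -0.14). Top2a and Mki67, with many matches in the printed stretches, were 0.31 and 0.33 below young on old replicate 3, and Ncaph, with none, 1.11. Over all arrays the order was the reverse, with differences of -3.54, -3.50 and -2.42, and old replicates 1 and 2 were at or below background for all 3 genes.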

How the data were processed

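The deposited table gives probe set intensities on a linear scale, summarised by RMA per the submitters' processing notes, with version and settings not given in the sources used here. Their log2 was taken, with no further normalization. Of 28940 probe sets, 21789 had 1 gene in the platform's annotation, 1621 several and 5530 none; the 23410 with a gene were tested. Old and young arrays were compared with limma 3.58.1 in R 4.3.3 (2-sided, moderated variances, Benjamini-Hochberg over all probe sets). The code was tested on simulated data. Tables and figures used Python 3.11.15, pandas 2.3.3 and matplotlib 3.10.9.

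The genes, their roles and the comparison lists were chosen with earlier results of these data known. In each role, genes are named for the smallest and largest unadjusted p and the largest and smallest change on old replicate 3, besides Ccnb2, both Aurora kinases, Bub1, Bub1b, Mki67 and Top2a. In other lists up to 3 with the smallest and 1 with the largest p are named; others were named after their values were seen. The background level and the sets of bright genes were also chosen so. Deviations of same-numbered arrays correlated at 0.157, 0.15 and 0.279. Those of old replicate 1 with young replicate 2 and of old replicate 2 with young replicate 1 correlated at 0.153 and 0.141. Replicates 1 and 2 thus showed no pairing by number. The replicate numbers in the titles were still tried as a block. The number of arrays limits the precision. Alternatives were other normalizations, filters, weights and thresholds, and leaving out arrays.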

Additional observations from a re-analysis of the deposited data

How the results depend on the processing

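No mitotic gene was called by limma with the replicate number as a block (0 of 36), without dim probe sets, with all probe sets, with centred or quantile normalized arrays, with trended robust moderation, by the mean of a gene's probe sets, at an adjusted p under 0.1 or with a 1.5-fold threshold. The block changed no call. Array weights called 36 of 36 and 19998 probe sets, giving old replicate 3 a weight of 0.045. Leaving out 1 array gave 0 to 35 mitotic genes and 0 to 19285 probe sets, the upper values without old replicate 3 and 0 without any other array. Without old replicates 1 and 2 it was 7 genes and 1638 probe sets, and the median difference was -0.55 in place of -2.42. That median ran from -1.93 to -3.25 when 1 array was left out, and quantile normalization gave -2.00. Quantile normalization turned Aurka and Cdc20 to 0.52 and 0.62 above young over all arrays (adjusted p = 0.217 and 0.254); the cause was not tested. Added after seeing the data, the alternatives for old replicate 3 stand with its result.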
